A study of Mus musculus with 18 samples.

Results

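The 41 A sites of the VH186.2 heavy chain segment that lie outside the hotspots of DNA polymerase η were followed in mice with normal, nuclease-dead or absent EXO1. A site was included if the germline base was A, if the deposited lists gave it no hotspot motif, and if it lay between nucleotides 30 and 285. The window holds 256 sites, of which 65 are A. The other 24 A sites carry the mark WA (W is A or T), the motif preferred by polymerase η.

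Splenocytes came from age-matched C57BL/6 mice immunized a single time, intraperitoneally, with NP(33)-CGG on alum and taken on day 10. There were 7 wild type mice (Exo1+/+), 8 mice homozygous for a knock-in that changes a catalytic aspartate of EXO1 to alanine and leaves a protein without nuclease activity (Exo1DA/DA), and 3 mice without the protein (Exo1-/-), both alleles being carried in the germline of every cell. The dose is 200 μg in the protocol and 200 mg in the sample labels, and the spleens were not sorted for B cells. VH186.2 was amplified from cDNA, so what is counted are transcripts of rearranged genes.

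In somatic hypermutation the deaminase AID turns C into U in the V segment. Mismatch repair can recognise the resulting U:G pair, EXO1 then removes a stretch of the strand, and the gap is filled by the error-prone polymerase η, which places mutations at A:T pairs that AID itself does not attack. Polymerase η errs most often at WA, and an A that follows C or G is therefore a less favoured template in the same process.

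VH186.2 is the IGHV1-72*01 allele, and its gene symbol in the RefSeq table of GRCm38.p6 is Ighv1-72, on chromosome 12 between 115757984 and 115758277. All 41 sites are in the coding sequence of the V exon. The germline bases of the window, rebuilt from the lists, are printed to show where the 41 sites lie. Capital A marks the 41 sites, and all other bases, the WA sites included, are in lower case.
VH186.2 nt 30 to 285: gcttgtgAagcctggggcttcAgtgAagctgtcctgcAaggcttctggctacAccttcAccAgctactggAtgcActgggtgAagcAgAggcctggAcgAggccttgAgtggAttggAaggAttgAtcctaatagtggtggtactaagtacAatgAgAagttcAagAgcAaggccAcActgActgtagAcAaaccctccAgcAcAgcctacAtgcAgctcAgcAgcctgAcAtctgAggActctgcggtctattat

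Of these sites 21 follow C and 20 follow G, 25 are the first, 9 the second and 7 the third base of their codon. Only 3 are in CDR1 (nt 76 to 99) and 2 in CDR2 (nt 151 to 174), and 36 are in the framework. Of the 123 possible base changes, 101 replace the amino acid, 8 of these by a stop codon, so that 82.1% of random changes would be replacements. An AID hotspot lies within 1 nt of 14 of the 41 sites.

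The 13 sites that are among the 6 with the highest mean in at least 1 genotype are shown with 5 bases on either side, the site in capitals, to show the base before and after it.
nt88: ccttcAccagc
nt91: tcaccAgctac
nt100: actggAtgcac
nt126: cctggAcgagg
nt142: agtggAttgga
nt147: attggAaggat
nt155: gattgAtccta
nt181: agtacAatgag
nt193: agttcAagagc
nt199: agagcAaggcc
nt211: cactgActgta
nt241: cctacAtgcag
nt269: tgaggActctg

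For every CDR3 clone, the authors picked 1 sequence at random, and repeated this 1000 times. Here a sequence counts by the share of repeats in which it was drawn, and sums over sequences are clones per draw. Unmutated sequences have no line in the lists, so every percentage is one of mutated clones. The mutated clones per draw numbered 911.0 (Exo1+/+), 617.9 (Exo1DA/DA) and 410.7 (Exo1-/-), with between 21.0 and 323.9 in a mouse. The mice are the dataset numbers of the lists (284 to 290, 296 to 303 and 293 to 295). They are as many as the mice of the labels, but the lists do not link the 2 sets of numbers. The number of reads behind a clone is unknown.

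A sites outside hotspots were mutated less often in mice with nuclease-dead EXO1 than in wild type mice. In the Exo1+/+ mice 284 to 290 a site was mutated, on average over the 41 sites, in 1.17, 1.09, 1.06, 1.76, 0.314, 0.221 and 0.522% of the mutated clones. In the Exo1DA/DA mice 296 to 303 the same quantity was 0.101, 0.0993, 0.288, 0.0606, 0.447, 0.0425, 0.145 and 0.160%. The groups overlapped only through Exo1DA/DA mice 298 and 300, which lay above the lowest Exo1+/+ mice. The means were 0.877% ± 0.550 (SD, n = 7) and 0.168% ± 0.136 (SD, n = 8), a 5.22-fold difference. The value was lower in Exo1DA/DA in 53 of the 56 pairs of mice (difference -0.709 percentage points, 2-sided exact permutation p = 0.0028, 0.0308 after Benjamini-Hochberg adjustment over 11 comparisons of genotypes).

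The adjusted threshold of 0.05 was lost when any of 11 of the 15 mice was left out (differences over all 15 fits -0.818 to -0.562, adjusted exact permutation p 0.0128 to 0.0659) and over all positions of the lists (-0.351, adjusted exact permutation p = 0.652). The call also depended on how related clones were counted. With sequences of 6 or more mutations found in several mice removed the difference was -0.657 (adjusted exact permutation p = 0.0705). A lineage joined sequences of a mouse that had at least 4 mutations and shared at least 0.7 of them (Jaccard index), and sequences with fewer mutations each stood alone. With each lineage counted 1 time the means were 0.450% ± 0.265 and 0.254% ± 0.313, a difference of -0.196 (exact permutation p = 0.232, adjusted 0.638). With each distinct mutation counted 1 time per mouse the means were 0.201% ± 0.142 and 0.0917% ± 0.0506, a difference of -0.110 (exact permutation p = 0.032, adjusted 0.352). Distinct mutations, of which only 123 are possible, were divided by all mutated clones, so this value tends to be low in mice with many clones. Mouse 285, with 323.9 clones, went from 1.09 to 0.119%. Exo1DA/DA had the lower mean in each of these fits.

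In the Exo1-/- mice 293, 294 and 295 a site was mutated in 0.511, 0.0399 and 0.335% of the clones, a mean of 0.295% ± 0.238 (SD, n = 3). The first and the third of these lie within the wild type range and mouse 294 lies under it. Exo1-/- was lower than Exo1+/+ in 17 of 21 pairs (difference -0.581, exact permutation p = 0.15, adjusted 0.561). The difference between Exo1DA/DA and Exo1-/- was -0.127 (exact permutation p = 0.303, adjusted 0.667), and it ran from -0.0194 without mouse 293 to -0.255 without mouse 294. Against Exo1+/+ the difference was -0.151 with each lineage and -0.119 with each distinct mutation counted 1 time. With 3 mice the smallest p possible was 0.0167 against Exo1+/+ and 0.0121 against Exo1DA/DA, so that a comparison with this genotype could not pass the adjusted threshold by itself.

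**Figure D1:**
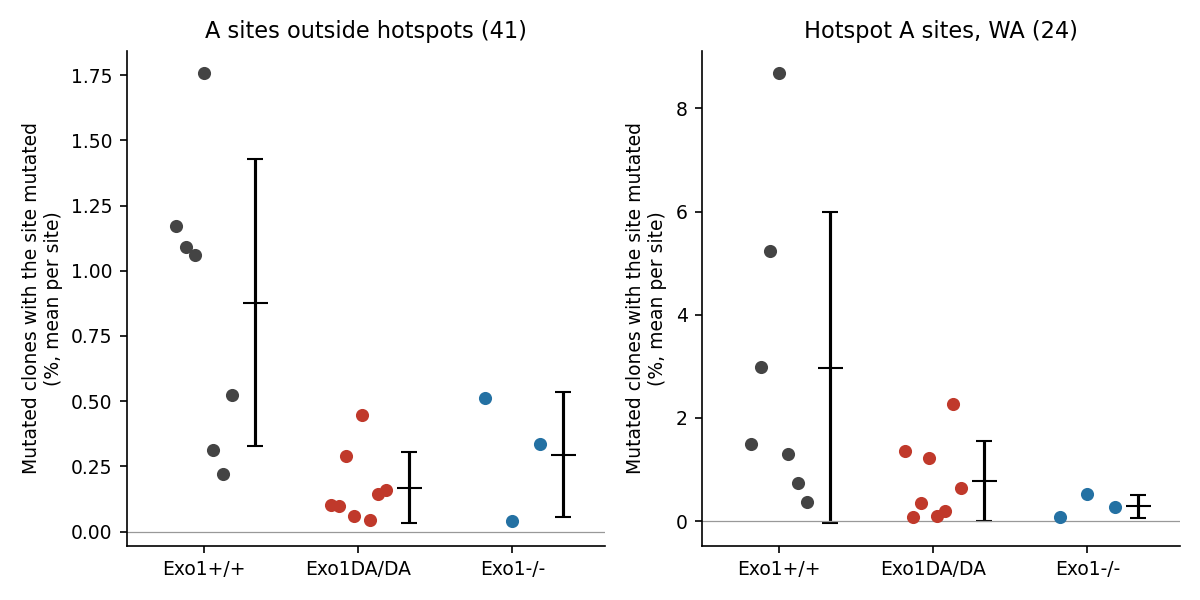
Mean percentage of mutated clones in which a site was mutated, per mouse, at the 41 A sites outside hotspots (left) and the 24 WA sites (right, with its own axis); points are mice, and the bar beside them is the mean with its SD. On the left 5 of 7 Exo1+/+ mice lie above all 8 Exo1DA/DA mice, and on the right Exo1DA/DA mice (0.0885 to 2.28%) overlap with Exo1+/+ mice (0.380 to 8.68%), and Exo1-/- mice reach 0.521%.

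Counted by clones, a mutation at 1 or more of the 41 sites was carried by 28.2% ± 15.4 of the mutated clones in Exo1+/+ mice (lowest 9.05, median 26.3, highest 47.5%). In Exo1DA/DA mice it was 6.66% ± 5.71 (lowest 1.24, median 5.04, highest 18.3%). In the Exo1-/- mice 293, 294 and 295 it was 20.6, 1.64 and 13.7%. The highest Exo1DA/DA value belongs to mouse 300, which had only 21 mutated clones, and its 95% Wilson interval runs from 7.67 to 40.001%. That of wild type mouse 285, with 323.9 clones, runs from 36.4 to 47.1%. These intervals, computed on whole clones, cover counting error only. Absolute numbers were small in the mutants. All Exo1DA/DA mice together had 33.0 such mutations per draw and all Exo1-/- mice 30.8, against 291.9 in Exo1+/+, of which mouse 285 alone held 49.6%.

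The lower level in Exo1DA/DA was not matched by a shift between the 41 sites and the WA sites that could be told from the spread of mice. The share of all A mutations that lay outside hotspots was 40.04% ± 17.2 in Exo1+/+ (lowest 25.7, median 33.9, highest 70.1%) and 37.0% ± 29.8 in Exo1DA/DA mice (lowest 7.84, median 28.2, highest 87.6%). In the Exo1-/- mice it was 92.0, 11.6 and 67.7%. Neither difference from Exo1+/+ passed the test (exact permutation p = 0.822 and 0.383, adjusted 0.883 and 0.703). The SD within each genotype was as large as the differences between the means, which were -3.02 and 17.0 percentage points.

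Within a mouse, WA sites were mutated more often than A sites outside hotspots in 6 of 7 Exo1+/+ mice, by 2.10 ± 2.57 percentage points per site (exact sign-flip permutation p = 0.0312, adjusted over 6 such comparisons 0.156). With 7 mice the smallest p possible is 0.0156, or 0.0938 after adjustment if no other comparison is as low, so that this test could not pass by itself. In Exo1DA/DA mice the same difference was 0.614 ± 0.831 and positive in 6 of 8 mice (exact permutation p = 0.0781, adjusted 0.156). In Exo1-/- mice it was -0.0054 ± 0.461 and positive in 1 of 3, where the smallest p possible is 0.25. Counted by lineage, by distinct mutation or without sequences of 6 or more mutations found in several mice, the difference was smaller in Exo1+/+ and Exo1DA/DA. Over these 3 countings it ran from 0.243 to 1.88 in Exo1+/+ and from 0.0996 to 0.446 in Exo1DA/DA mice. The level at WA sites was 2.97% ± 3.01, 0.782% ± 0.778 and 0.290% ± 0.223 in the order Exo1+/+, Exo1DA/DA and Exo1-/-.

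On the opposite strand an A site outside a hotspot reads as a T site outside a hotspot, of which the window holds 36. These T sites were mutated in 0.549% ± 0.356 of clones in Exo1+/+ and 0.635% ± 0.538 in Exo1DA/DA mice. In the Exo1-/- mice 293 to 295 the values were 0.0251, 0.0646 and 0.901%. The T sites exceeded the A sites in 2 of 7 Exo1+/+ mice (mean difference -0.328, exact permutation p = 0.281, adjusted 0.422) and in 6 of 8 Exo1DA/DA mice (0.467, exact permutation p = 0.0547, adjusted 0.156). Over the 3 other countings named above, the difference ran from -0.271 to -0.0276 in Exo1+/+ and from 0.0557 to 0.217 in Exo1DA/DA mice. Whether this difference itself differs between the genotypes was not tested.

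The new base varied widely from mouse to mouse. Transitions to G made up 39.3% ± 26.8 of the mutations at the 41 sites in Exo1+/+ mice (lowest 5.85, median 53.7, highest 65.8%) and 56.9% ± 30.5 in Exo1DA/DA mice (lowest 1.85, median 64.8, highest 93.4%). The Exo1-/- mice had 91.8, 10.4 and 37.0%. The ranges overlapped in part: Exo1DA/DA mice 297, 299, 301 and 303 and Exo1-/- mouse 293 lay above the highest Exo1+/+ mouse. The differences of the means from Exo1+/+ did not pass the test (exact permutation p = 0.243 and 0.70, adjusted 0.667 and 0.883). That of Exo1DA/DA was 17.6 percentage points, and 5.56 to 27.6 under the alternatives (adjusted exact permutation p 0.345 to 0.856). The lowest value is that of mice with at least 5 such mutations, of Exo1DA/DA only 296, 298 and 302. Changes to C had a mean share of 36.2% ± 22.4, 22.4% ± 25.8 and 21.6% ± 34.7, and changes to T of 24.5% ± 31.5, 20.7% ± 30.6 and 31.9% ± 47.7, in the order Exo1+/+, Exo1DA/DA and Exo1-/-. In 3 mice, 1 of each genotype, changes to T were in the majority, with 91.9% in mouse 286, 89.9% in mouse 300 and 86.9% in mouse 294. In each of these mice a single position led. That position was nt 241 in mouse 286 (93.2% of its mutations at the 41 sites), nt 91 in mouse 300 (89.0%) and nt 211 in mouse 294 (62.6%).

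**Figure D2:**
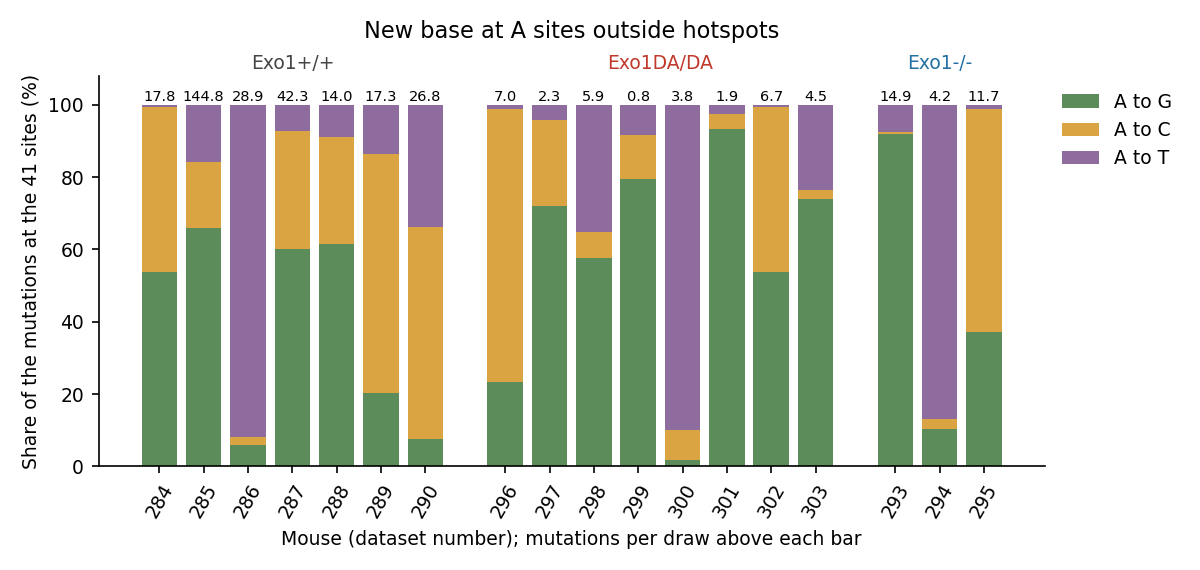
Share of mutations to G, C and T among all mutations at the 41 A sites, 1 bar per mouse, with the number of such mutations per draw above the bar. Mice 286, 300 and 294 stand apart with 86.9 to 91.9% of changes to T, and Exo1DA/DA bars rest on 0.797 to 6.96 mutations per draw.

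Of the 41 sites 12.2% lie in the CDRs, and in 12 of the 18 mice the CDRs held a smaller share of the mutations than that. The CDR share was 10.9% ± 16.8 in Exo1+/+ mice (lowest 0.456, median 3.91, highest 46.2%) and 32.0% ± 32.6 in Exo1DA/DA mice (lowest 0.911, median 24.5, highest 90.0%). It was 8.10, 1.90 and 5.26% in the Exo1-/- mice. The higher mean in Exo1DA/DA was within the spread of the mice (difference 21.1 percentage points, exact permutation p = 0.153, adjusted 0.561), and so was the difference of Exo1-/- (-5.79, exact permutation p = 0.883, adjusted 0.883). The first difference fell to 12.8 without Exo1DA/DA mouse 300, to 9.24 in mice with at least 5 such mutations and to 0.9499 over all positions of the lists. Of the Exo1DA/DA mice only 296, 298 and 302 had at least 5 such mutations. With sequences of 6 or more mutations found in several mice removed it was 32.1, over 7 Exo1DA/DA mice with a mutation left (exact permutation p = 0.0128, adjusted 0.0705). Per site, the 36 framework sites were mutated in 0.896% ± 0.635 of clones in Exo1+/+ (lowest 0.242) and 0.0938% ± 0.0459 in Exo1DA/DA mice (highest 0.163). These 2 ranges did not overlap, an observation made after the values were seen and not tested. The 5 CDR sites had 0.737% ± 1.503 and 0.702% ± 1.15, with a median of 0.123 and 0.134%. In the Exo1-/- mice framework sites had 0.314% ± 0.249 and CDR sites 0.163% ± 0.167.

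Replacement mutations made up 77.5% ± 26.8, 81.8% ± 26.5 and 72.6% ± 45.0 of the mutations in Exo1+/+, Exo1DA/DA and Exo1-/- mice, and 82.1% of the possible changes replace. The means hide a wide spread, from 34.2 to 99.7% in Exo1+/+, from 27.1 to 99.2% in Exo1DA/DA and from 20.6 to 99.4% in Exo1-/- mice. The differences of the mutants from Exo1+/+ were within the spread of mice (exact permutation p = 0.72 and 0.75, adjusted 0.883 and 0.883). The lowest shares were 34.2 and 46.1% in Exo1+/+ mice 289 and 290, 27.1% in Exo1DA/DA mouse 296 and 20.6% in Exo1-/- mouse 295. In all 4 of them the leading position was nt 126, where the change to C is silent.

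The base before the site gave no common order. Sites after C were mutated more often than sites after G in 10 of the 18 mice, 1 of them Exo1-/-, 5 Exo1DA/DA and 4 Exo1+/+. In Exo1+/+ the means were 1.07% ± 0.773 and 0.678% ± 0.596. The 14 sites within 1 nt of an AID hotspot exceeded the other 27 in as many mice of each genotype, with 1.23% ± 0.969 against 0.694% ± 0.588 in Exo1+/+ mice.

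The mutations were concentrated on a few positions. Of the 41, the most mutated in a mouse was nt 126 in 4 mice, nt 181 in 3 and nt 155 in 2, and the other 9 mice each had a leading position of their own. Of the 41 sites 18 did not reach 1% of the clones in any mouse, 12 did so in 1 mouse, 7 in 2 mice and 4 in 3 or more mice. Of the 45 pairs of a mouse and a site at 1% or more, 33 lay at sites that several mice reached. Exo1+/+ mice reached 1% at 19 of the sites, Exo1DA/DA mice at 8 and Exo1-/- mice at 6. No Exo1-/- site did so in more than 1 of the 3 mice. The groups hold 7, 8 and 3 mice in the same order. The 1% mark also stands for different numbers of clones, as mouse 300 had 21 mutated clones and mouse 285 had 323.9. Such a count over all positions of the window is not given here, so these numbers do not compare the genotypes. All 123 possible changes appear in the lists, but only 35 of them reached 1 clone per draw in a mouse. Of these, 29 replace the amino acid, 5 are silent and 1 creates a stop codon. The 4 leading changes of a genotype held 52.0% of its mutations at the 41 sites in Exo1+/+ mice, and 57.3 and 79.9% in the nuclease-dead and the knockout mice.

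**Figure D3:**
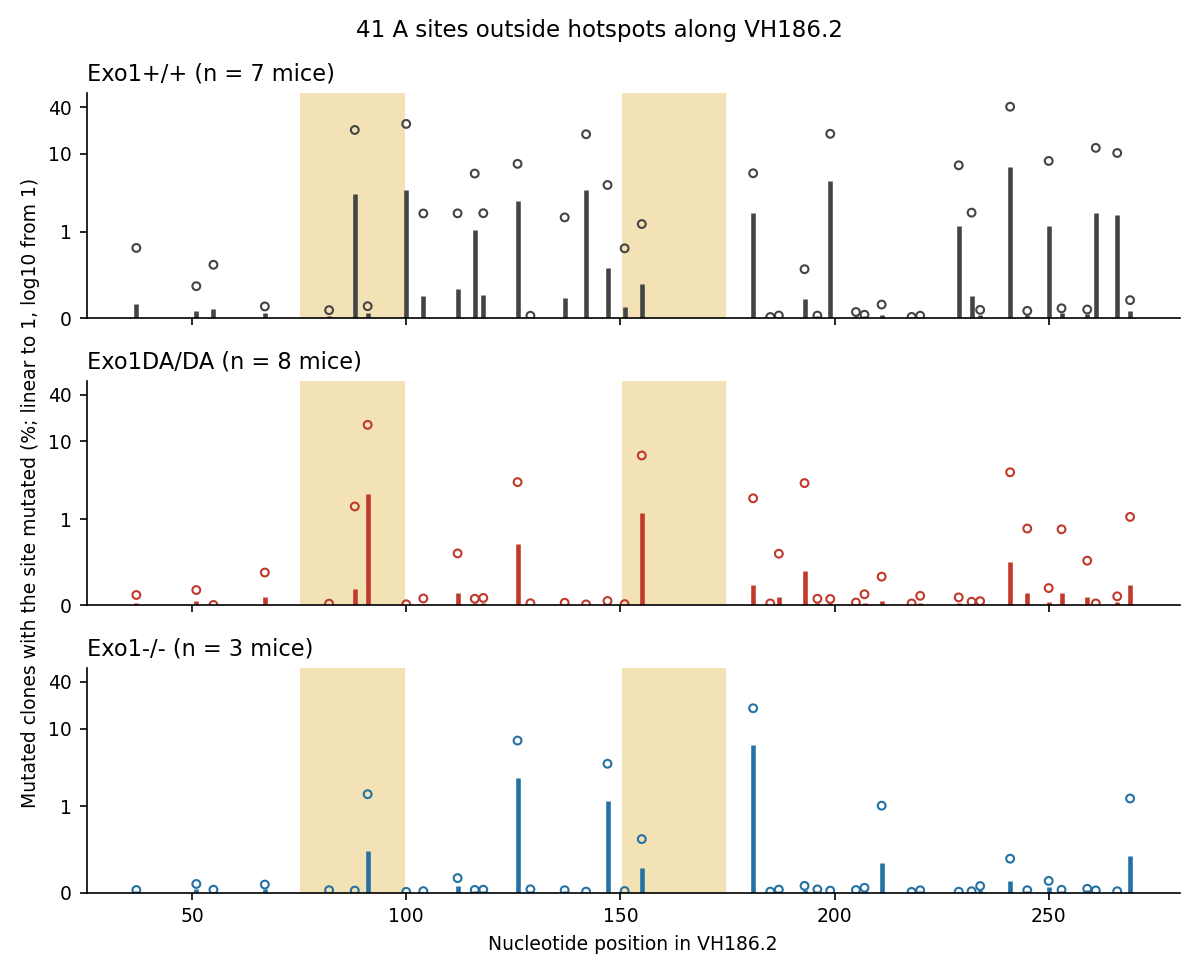
Percentage of mutated clones with a mutation at each of the 41 A sites along VH186.2, with a vertical axis that is linear up to 1% and logarithmic from there; lines are means over the mice, open circles the highest mouse, and shading marks CDR1 and CDR2. Exo1+/+ mice have 7 positions with a circle above 10%, the highest at nt 241 (40.5%). Exo1DA/DA mice have 1 (nt 91, 16.3%) and Exo1-/- mice 1 (nt 181, 18.3%). A circle is the highest of 7, 8 and 3 mice in the same order.

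Tested position by position, no site passed after adjustment over all 256 positions. The number of mice limits this test. The smallest exact permutation p possible was 3.1e-04 for Exo1DA/DA against Exo1+/+, which gives a lone position an adjusted p of 0.0796, and 0.0167 for Exo1-/-, where 86 positions at that p would be needed to pass. The adjusted tests therefore say little about single sites. In Exo1DA/DA against Exo1+/+, 3.52% of all positions were lower at an unadjusted exact permutation p under 0.05, and 2 of the 41 A sites were among them. Another 1.56% of all positions were higher at that threshold, none of them among the 41. The 2 sites were nt 142 (exact permutation p = 0.0062, adjusted 0.504) and nt 55 (0.102% in Exo1+/+ and 0.0047% in Exo1DA/DA, exact permutation p = 0.0087, adjusted 0.504), the latter named after its value was seen. At nt 55 mouse 285 had 0.617% and the other Exo1+/+ mice at most 0.0325%. Apart from mouse 285, the values compared at nt 55 are all under 1 clone per draw. In Exo1-/- against Exo1+/+, 1.17% of positions were lower and 0% higher at the unadjusted threshold. Of the 41 sites nt 229 (1.17 and 0.0082%, exact permutation p = 0.0167) and nt 241 (exact permutation p = 0.0333) were lower, both with an adjusted p of 0.954, and nt 229 was again named after its value was seen. At nt 229 Exo1+/+ mice 285 and 288 had 7.15 and 0.947%, and the other Exo1+/+ mice at most 0.0238%, which is under 1 clone per draw. Within these limits the adjusted threshold called 0% of the 256 positions in either comparison. With each lineage counted 1 time 4.3% of all positions were lower in Exo1DA/DA at the unadjusted threshold, with 3 of the 41 sites among them, and 0.391% were higher, with 0 of the 41. With sequences of 6 or more mutations found in several mice removed 12.1% of all positions were lower, 6 of the 41 sites among them, and 0.781% were higher, with 0 of the 41. The mean was lower in Exo1DA/DA at 26 of the 41 sites (63.4%) against 54.3% of all 256 positions, and lower in Exo1-/- at 29 (70.7%) against 64.1%.

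The most mutated position on average in Exo1+/+ mice was nt 241, the first base of Met81 in the framework. It was mutated in 2.003% of the clones of mouse 285, 40.5% of mouse 286, 1.70% of mouse 287 and 1.05% of mouse 289, and in under 1% in the other three (mean 6.73% ± 14.9). Of the Exo1DA/DA mice, 298 had 4.002% and the others under 0.1% (mean 0.505% ± 1.41), and the highest Exo1-/- mouse was 294 with 0.395% (mean 0.135% ± 0.226). The value of mouse 286 rests on 27 of 66 clones, with a 95% Wilson interval of 29.9 to 53.0%, and 79.0% of its A241T clones were of 1 lineage. Over all mice, 36.5 clones carried A241T, which replaces methionine by leucine, and 4.67 carried A241G, which replaces it by valine.

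Positions nt 199, nt 100 and nt 142, also among the leading ones of Exo1+/+, rested on 1 or 2 mice each. Position nt 199, the first base of Lys67 in the framework, was mutated in 13.6% of the clones of mouse 284 and 18.2% of mouse 287, and in under 0.1% in the rest (mean 4.55% ± 7.85). Position nt 100, the first base of Met34, reached 24.4% in mouse 284 and at most 0.013% in the other Exo1+/+ mice (mean 3.49% ± 9.21). Position nt 142, the first base of Ile48, reached 6.38% in mouse 285 and 17.95% in mouse 287 (mean 3.48% ± 6.81). In neither mutant did any of these positions reach 0.1% in a mouse.

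Position nt 88, the first base of Thr30 in CDR1, was mutated in 20.4% of the clones of mouse 285, in 0.964% of mouse 288 and under 0.2% in the other Exo1+/+ mice (mean 3.07% ± 7.64). In the mutants, mouse 303 had 1.45% and no other mouse over 0.03%. In mouse 285, 97.0% of the A88G clones belonged to 1 lineage, and the A88G clones carried 14.1 mutations on average. This lineage was the largest among clones with a mutation at the 41 sites, with 64.3 clones, or 25.2% of such clones in Exo1+/+ mice.

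Position nt 126, the third base of Gly42, reached 1% of the clones in 7 mice, more than any other of the 41 sites. It stood at 1.71, 1.85, 5.82 and 7.47% in Exo1+/+ mice 287 to 290 (mean 2.50% ± 2.96). In Exo1DA/DA it reached 2.99% in mouse 296 and 2.66% in mouse 302, and in the other 6 mice it stayed under 0.03% (mean 0.714% ± 1.31). In Exo1-/- it reached 7.04% in mouse 295 and at most 0.013% in the other two (mean 2.35% ± 4.06). The mean in Exo1-/- was close to that of Exo1+/+, but it was made by a single mouse. Nearly all clones carried A126C, which leaves glycine in place.

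Position nt 181, the first base of Asn61, led in Exo1-/- through mouse 293, with 18.3% of its clones (95% Wilson interval 11.02 to 28.8%). The other Exo1-/- mice had 0.0024 and 0.042% (mean 6.13% ± 10.6). In Exo1+/+ it reached 5.65% in mouse 285 and 5.40% in mouse 288 (mean 1.74% ± 2.59), and in Exo1DA/DA 1.85% in mouse 303 (mean 0.243% ± 0.650). The A181G clones of mice 285 and 293 carried 3.50 and 3.01 mutations on average, and 29.5 and 28.2% of them had the 4 mutations that the lineage rule needs, so their relatedness was not resolved by it. In mouse 285 86.0% of them also carried A221G, against 0.928% of its other clones, and 73.8% carried G98T, against 37.4%. The 3 changes stood together in 11.7 clones. In mouse 293 84.6% also carried A294G, against 54.9% of its other clones.

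In Exo1DA/DA mice the highest mean was that of nt 91, the first base of Ser31 in CDR1, at 2.09% ± 5.75. It came from mouse 300, where 16.3% of 21 clones (95% Wilson interval 4.98 to 34.6%) carried the mutation, and no other Exo1DA/DA mouse passed 0.12%. In Exo1+/+ mice it was at most 0.138%, and in Exo1-/- it reached 1.44% in mouse 293. Position nt 155, in Asp52 of CDR2, had 6.58% in mouse 298, 1.78% in mouse 303 and 0.898% in mouse 299 (mean 1.21% ± 2.25). In Exo1+/+ it was between 0.044 and 1.26% (mean 0.399% ± 0.395), and in Exo1-/- 0.228, 0.011 and 0.622%. The rise of these means in Exo1DA/DA was within the spread of the mice (exact permutation p = 0.609 and 0.463, adjusted 0.922 and 0.919). Position nt 193 reached 2.90% in mouse 302 alone, and nt 147 3.99% in Exo1+/+ mouse 290 and 3.54% in Exo1-/- mouse 295. Position nt 211 stood at 1.02% in Exo1-/- mouse 294, and nt 269 at 1.27% in Exo1-/- mouse 295 and 1.07% in Exo1DA/DA mouse 300. In mouse 300 the value at nt 269 is under 1 clone per draw (0 of 21 whole clones, 95% Wilson interval 0 to 15.5%).

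**Figure D4:**
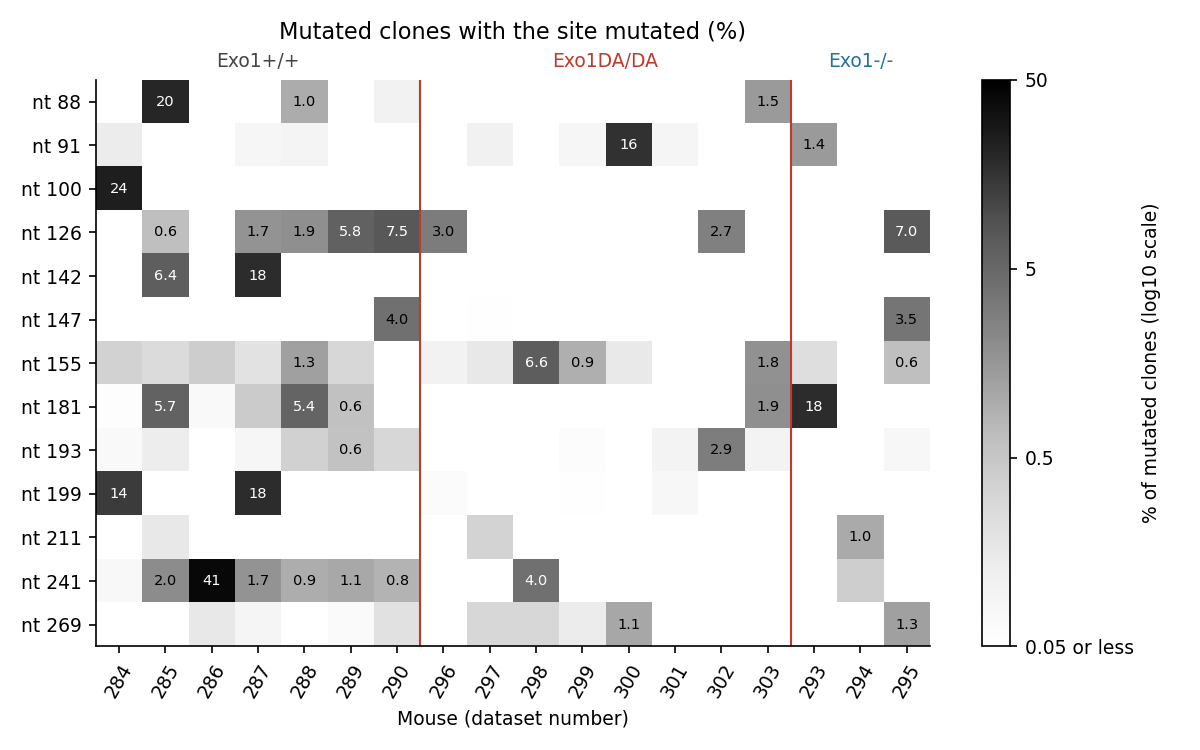
Percentage of mutated clones with a mutation at each of the 13 leading A sites outside hotspots (rows) in each mouse (columns, grouped by genotype), shaded on a log10 scale and printed from 0.5% on. Most rows are dark in 1 or 2 mice, and nt 126 is at or above 1% in 7 mice of the 3 genotypes.

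Some mutations at the 41 sites came as fixed combinations that recurred in different mice. The 3 changes A222G, A241T and A281G stood together in 30.8 clones of 7 mice, 5 of them Exo1+/+ (27.8 clones, of which 21.8 in mouse 286), 1 Exo1DA/DA (2 clones) and 1 Exo1-/- (1 clone). This combination accounts for 84.5% of all clones with A241T. The changes A126C, G128A and G30A stood together in 34.0 clones of 6 mice, 3 Exo1+/+ (20 clones), 2 Exo1DA/DA (8 clones) and 1 Exo1-/- (6 clones), or 86.2% of all A126C clones. The changes C87T, A88G and C89G, 3 neighbouring bases, stood together in 65.99 clones of mouse 285 and in 1 clone of 1 Exo1+/+ and 1 Exo1DA/DA mouse each. No clone is counted in more than 1 mouse, and the lists do not say how the same combination came to be in several mice. Of all clones with a mutation at the 41 sites, 27.6, 40.5 and 5.45% in the order Exo1+/+, Exo1DA/DA and Exo1-/- matched a sequence of another mouse with at least 6 mutations each and a Jaccard index of at least 0.7. With such sequences removed from every mouse, the means were 0.836% ± 0.516 in Exo1+/+ and 0.179% ± 0.228 in Exo1DA/DA mice, a difference of -0.657 (exact permutation p = 0.0075, adjusted 0.0705). A looser limit of 4 mutations, chosen after seeing these combinations, gave 0.744% ± 0.556 and 0.185% ± 0.251 (exact permutation p = 0.0205, adjusted 0.131).

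Clones with a mutation at the 41 sites carried a WA mutation more often than clones without one in Exo1+/+ mice. The shares were 62.9% ± 34.8 and 25.2% ± 20.0, and the first was higher in 7 of 7 mice. In Exo1DA/DA mice they were 17.0% ± 27.9 and 14.3% ± 13.6, higher in 3 of 8, and in Exo1-/- mice 19.0% ± 10.1 and 5.28% ± 5.95, higher in 3 of 3. A mutation at a G or C was on average carried less often with such a mutation than without one, by 78.1% ± 27.7 and 83.6% ± 12.7 in Exo1+/+ (higher in 3 of 7 mice), 76.01% ± 27.3 and 92.9% ± 6.55 in Exo1DA/DA (3 of 8) and 65.97% ± 21.9 and 77.6% ± 18.4 in Exo1-/- mice (1 of 3). Clones of Exo1+/+ mice with such a mutation also carried more other mutations on average, 6.61 ± 2.90 against 4.18 ± 0.894, though in only 4 of 7 mice. In Exo1DA/DA mice the numbers were 5.30 ± 3.76 and 6.31 ± 1.53, higher with such a mutation in 2 of 8, and in Exo1-/- mice 5.25 ± 1.88 and 5.27 ± 3.11, higher in 1 of 3. All clones in the lists are mutated. A clone without a mutation at the 41 sites must therefore carry one elsewhere, and a clone with one need not. This by itself raises the WA share, the G or C share and the number of other mutations in clones without one. The part of this selection, of the number of mutations and of the relatedness of the clones in these values was not tested.

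**Figure D5:**
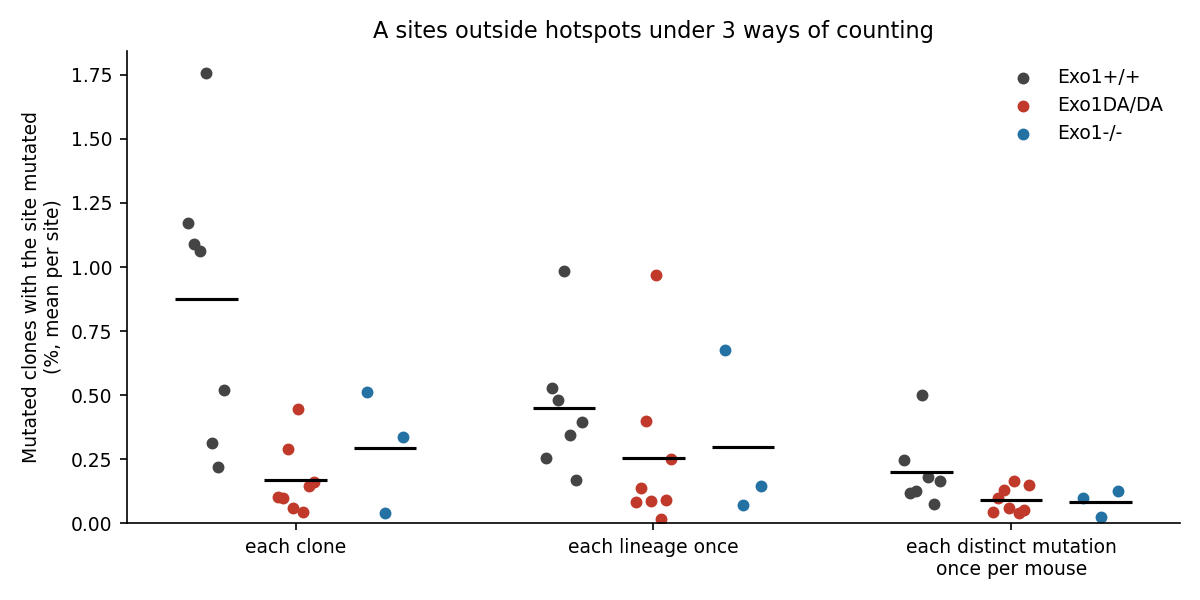
Mean percentage of mutated clones in which one of the 41 sites was mutated, per mouse (points) with the mean of the genotype (line), counting each clone, each lineage 1 time, or each distinct mutation 1 time per mouse. The Exo1+/+ mean falls from 0.877 to 0.450 and 0.201%, and the Exo1DA/DA mean is 0.168, 0.254 and 0.0917% in the same order. By lineage, Exo1DA/DA mouse 300 (0.967%) rests on 5.21 lineages or lone sequences per draw and mouse 301 on 3.00. Distinct mutations are divided by all mutated clones of the mouse.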

How the data were processed

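VH186.2 was sequenced from spleen cDNA of 18 mice. After nested PCR and paired-end MiSeq sequencing, the authors assembled reads, grouped them into CDR3 clones and picked 1 sequence of every clone, 1000 times over. The deposited lists hold 1 line per mutation and draw, with its nucleotide position, base change, hotspot mark and dataset number, neither read counts nor normalized values. Program versions are not given in the sources used here.

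From the lists, a sequence was weighted by the share of iterations that drew it. Per mouse, mutations at the 41 sites were divided by the mutated clones and the sites. Draws are no replicates: the number of mutations per draw had an SD over the draws of 3.92, 2.87 and 1.86 in the order Exo1+/+, Exo1DA/DA and Exo1-/-. Each dataset number was taken as 1 mouse. Exact 2-sided permutation tests on the mean per genotype ran through all divisions of the mice (6435 between Exo1DA/DA and Exo1+/+, 120 between Exo1-/- and Exo1+/+, 165 between the mutants). Site classes were compared within a mouse by exact sign-flip permutation tests, with Benjamini-Hochberg adjustment over 11 and 6 comparisons, and positions over 256. CDRs were those of IMGT, and codons are numbered from the first codon of VH186.2. A mutation was called a replacement against the germline codon, each mutation taken alone. Named positions are the 6 with the highest mean in each genotype and the 3 with the largest rise and fall in each mutant. The members and lists were chosen with earlier results of these data known. Alternatives covered the counting of lineages, distinct and shared sequences, the window, the iterations, the statistic, the CDR limits and each mouse left out. Weights, lineages, shared sequences and tests were tested on simulated data. The programs were NumPy 2.4.6, pandas 2.3.3 and SciPy 1.17.1 under Python 3.11.15. No V gene sequences other than VH186.2 were used here, so transcripts of other V genes could not be told from mutated VH186.2.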

Additional observations from a re-analysis of the deposited data

Results flagged for a closer look

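Of 14 groups of 7 or 8 mice examined for a mouse far from the others, 1 was singled out. Among independent groups of normally distributed values, chance alone picks about 1 in 20. The groups here share mice and mutations, and the form of their distributions was not tested, so that rate may not hold. In Exo1+/+ mouse 285 the CDR share of the mutations at the 41 sites was 46.2%, against 18.5% in the next mouse and a median of 3.91%. The gap was 60.5% of the range of the group. In this mouse nt 88 in CDR1 held 45.6% of the mutations at the 41 sites.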

How the results depend on the processing

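The lower per-site value of Exo1DA/DA against Exo1+/+ kept its direction under each alternative and leave-one-out fit. Its adjusted exact permutation p was 0.0308, and it lost the adjusted threshold with each lineage counted 1 time (-0.196), each distinct mutation 1 time (-0.110), shared sequences of 6 or 4 mutations removed (-0.657 and -0.558, the latter chosen after seeing the data) and all positions of the lists (-0.351, adjusted p = 0.652). The last adds 3 end sites, among them nt 294, mutated in 25.8, 40.3 and 32.5% of clones in Exo1+/+, Exo1DA/DA and Exo1-/- mice. It stayed past the threshold without nt 88, in the first 0.5 of the iterations (adjusted exact permutation p = 0.0342) and by ranks (0.0239). Leaving out each mouse gave -0.818 to -0.562 (adjusted p 0.0128 to 0.0659), and it lost the threshold in 11 of 15 fits, those without any of mice 284 to 287, 290, 296, 297, 299 and 301 to 303.

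No other comparison passed the adjusted threshold under any alternative, which those with Exo1-/- and the within-mouse ones of Exo1+/+ could not do by themselves, and the following changed sign. For Exo1DA/DA against Exo1-/- the per-site difference was 0.0089 with distinct mutations and 0.0702 over all positions. The outside share of Exo1DA/DA was 3.08 with distinct mutations, 5.41 by lineage and 12.6 over all positions, and -10.2 to 1.99 with a mouse left out. In mice with at least 5 A mutations, which leaves out Exo1DA/DA mice 297 and 300, it kept its sign at -16.2. The outside share of Exo1-/- was -0.396 to 39.8 with a mouse left out. The A to G share of Exo1-/- was -2.53 with distinct mutations, and -15.5 to 25.2 with a mouse left out. The CDR share of Exo1-/- was 7.55 with distinct mutations, 1.504 without nt 88, 13.9 with Kabat CDRs, and -7.52 to 0.103 with a mouse left out. The replacement share of Exo1-/- was 2.33 by lineage (-18.3 to 21.1 with a mouse left out). That of Exo1DA/DA was -0.742 with shared sequences of 4 mutations removed, -10.4 over all positions and -17.5 in mice with at least 5 mutations (-2.87 to 12.2 with a mouse left out). The value -17.5 rests on Exo1DA/DA mice 296, 298 and 302 only. In Exo1-/- mice WA minus A sites was 0.0412 by lineage, 0.0347 with distinct mutations and 0.0350 with shared sequences of 6 mutations removed, and T minus A sites -0.0194 and -0.0024 by lineage and with those removed. With shared sequences of 6 mutations removed, 6 of the 41 sites were lower in Exo1DA/DA at an unadjusted exact permutation p under 0.05, as were 12.1% of all 256 positions, and 0 were higher. By lineage 0 of the 41 passed in Exo1-/-, as did 0% of all positions. The cause of these changes was not tested.

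No paired analysis was possible because the lists carry dataset numbers, not the mouse numbers that Exo1+/+ and Exo1-/- share in the labels, and these are different animals. Precision was limited by 0.797 to 6.96 mutations per draw at the 41 sites in an Exo1DA/DA mouse.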
